A study of Mus musculus with 6 samples.

Results

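Mutations of the genes described here, 10 of the 24015 gene symbols in the count tables, cause inherited neuropathies of the Charcot-Marie-Tooth group. Most of these genes encode proteins that act at endosomes or mitochondria. All 10 were chosen by name as genes of the Charcot-Marie-Tooth group outside the proteins of the myelin sheath. They are Mtmr2, Sbf1, Sbf2, Fig4, Sh3tc2, Litaf, Ndrg1, Fgd4, Gdap1 and Mfn2. RNA was sequenced from sciatic nerves of mice at postnatal day 14, with 3 control and 3 Rnf40ΔSC libraries, each from a pool of 3 nerves. All mice carried floxed Rnf40 alleles (Rnf40 fl/fl), and Rnf40ΔSC mice carried the Dhh::Cre transgene in addition, which removes the E3 ubiquitin ligase Rnf40 in the Schwann cell lineage. The labels give every library a mixed 129SvJ/C57Bl/6J background, whereas the methods name C3H in place of 129SvJ. Whole nerve also holds cells outside this lineage, among them connective tissue, vessel and immune cells. The library kit differs between the sources too, NEB Next Ultra in the labels and a directional kit in the methods, for all libraries alike.

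Myelinating Schwann cells make and turn over a very large membrane, and phosphoinositides on endosomes mark which membrane is recycled and which is degraded. Mutations in enzymes and adaptors of this traffic cause mostly demyelinating neuropathies with recessive or dominant inheritance. Genes of mitochondrial fusion and fission stand beside them, although mutations of Mfn2 are best known from an axonal form of the disease.

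Control replicates 1, 2 and 3 held 1317167, 1992622 and 2468765 counts in genes. Rnf40ΔSC replicates 1, 2 and 3 held 2184268, 1459387 and 2186710. Of these, the members together made up 0.305% to 0.321% in control and 0.285% to 0.303% in Rnf40ΔSC libraries. Ndrg1 alone held 74.1% to 74.6% of the members' counts in control and 65.4% to 68.2% in Rnf40ΔSC libraries. Values below are normalized counts, that is counts brought to the same library size with TMM, a method that sets the scaling so that most genes do not differ. Fold changes are Rnf40ΔSC over control, with the adjusted p of edgeR's quasi-likelihood test, adjusted by Benjamini-Hochberg over all 11371 genes tested. The standard error (SE) was derived from the log2 fold change and the F statistic of that test, and confidence intervals from this SE with a t quantile. The labels call the replicates biological, and no source says whether a mouse gave nerves to more than 1 pool.

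The deleted gene was lower in the libraries labelled Rnf40ΔSC. Rnf40 had 130, 126 and 142 normalized counts in control replicates 1, 2 and 3 and 90.2, 90.4 and 94.2 in Rnf40ΔSC replicates 1, 2 and 3. Every Rnf40ΔSC library lay below every control library, at a log2 fold change of -0.54 (SE 0.14, adjusted p = 0.00242 by edgeR). With total counts it was -0.27 and lost the call (adjusted p = 0.120), the only one of 13 alternatives to do so. In RNA from a whole tissue, fewer cells of a type and less RNA per cell cannot be told apart. Per the paper, the floxed allele loses only some exons and other cells of the nerve stay Rnf40-positive. Counts of Rnf40 can therefore hold reads of the remaining exons and of those cells, and its fold change does not measure how complete the deletion was.

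Of the 10 members, 9 passed the filter on low counts. At an adjusted p of at most 0.05 in edgeR, Ndrg1 and Sbf2 were lower and Litaf and Mtmr2 were higher in Rnf40ΔSC nerves. That is 2 of 9 lower, where 16.2% of all genes tested were lower, and 2 of 9 higher, where 15.4% were higher. So many genes differed in this tissue that counts of 2 in 9 are not read as a property of the members. The edgeR counts of the gene lists below stand against the same shares of all genes. No member reached the fold limits set beforehand, 0.8 or more on the log2 scale in either direction, with a base mean (average normalized count over the 6 libraries) of 20 or more and an adjusted p of at most 0.05. The count of members within the limits was 0 by edgeR and 0 by DESeq2, while by edgeR 5.05% of all genes were lower and 3.73% higher within them. At an unadjusted p under 0.05 in edgeR stood 5 of the 9 members, against 41.0% of all genes tested. The libraries of the genotypes did not overlap for 5 of the 9 members, against 43.5% of all genes tested.

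The scale of these changes depends on the scaling, since total-count scaling moved the median log2 fold change of all genes from -0.00 to 0.27. Calls were 1841 lower and 1756 higher after TMM and 880 lower and 3766 higher with total counts, so that the lower share of calls went from 51.2% to 18.9%. Directions below are therefore relative to the median gene.

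**Figure D1:**
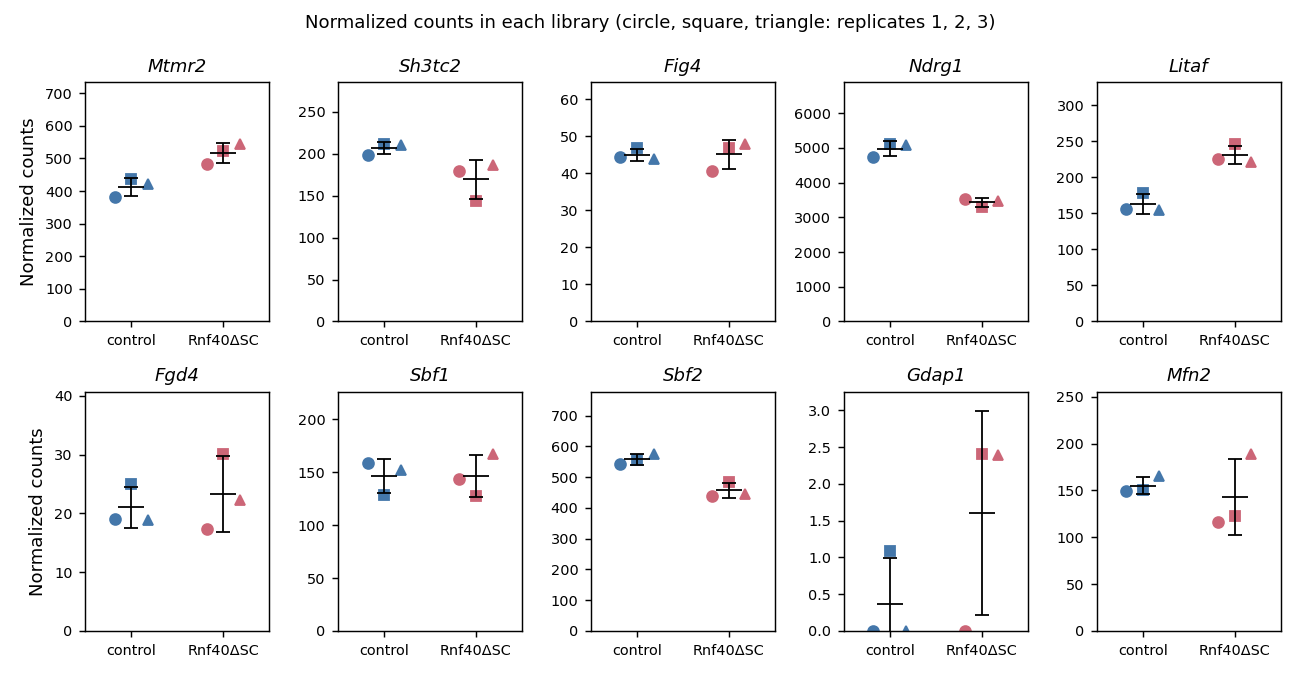
Normalized counts (vertical axis, from 0 in each panel) of the 10 members in 3 control and 3 Rnf40ΔSC libraries, with the mean and SD in black and replicates as circle, square and triangle. Ndrg1 and Sbf2 show 3 Rnf40ΔSC libraries below all controls, and Litaf and Mtmr2 show 3 above them.

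Among the phosphoinositide enzymes, the phosphatase Mtmr2 and its inactive partner Sbf2 moved in opposite directions. Mtmr2 removes the 3-phosphate from phosphoinositides of endosomes, and Sbf1 and Sbf2 are myotubularins without catalytic activity that bind it. Mtmr2 (chromosome 9, 13552854 to 13610925 on the plus strand of mm9, GENCODE annotation) had 383, 437 and 421 normalized counts in control replicates 1, 2 and 3 and 484, 524 and 543 in Rnf40ΔSC replicates 1, 2 and 3. The lowest Rnf40ΔSC library was above the highest control library. The log2 fold change was 0.32 (SE 0.09, adjusted p = 0.00874 by edgeR), a fold of 1.25. Without control replicate 1 the adjusted p was 0.0577, in a range of 7.02e-06 to 0.0577 over all alternatives.

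Sbf2 (chromosome 7, 117451527 to 117758436, minus strand) had 541, 555 and 576 normalized counts in control replicates 1, 2 and 3 and 440, 483 and 446 in Rnf40ΔSC replicates 1, 2 and 3. All Rnf40ΔSC libraries were below all control libraries. The log2 fold change was -0.29 (SE 0.09, adjusted p = 0.0137 by edgeR). This call was lost with total-count scaling, where the log2 fold change was -0.02 (adjusted p = 0.871), and without control replicate 3 (0.0838) or Rnf40ΔSC replicate 1 (0.0824), in a range of 0.0126 to 0.871 over all alternatives in edgeR and DESeq2.

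A ratio within a library needs no scaling factor. The ratio of Mtmr2 to Sbf2 counts, chosen after the values of both genes had been seen and so given without a test, was 0.707, 0.788 and 0.731 in control and 1.10, 1.08 and 1.22 in Rnf40ΔSC replicates 1, 2 and 3. The ratios of the genotypes did not overlap, with means of 0.742 ± 0.0416 and 1.13 ± 0.0727 (SD, n = 3 each). This follows from Mtmr2 being higher and Sbf2 lower in every Rnf40ΔSC library, so it is no separate evidence.

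Sbf1 (chromosome 15, 89118667 to 89145742, minus strand) had 129 to 159 normalized counts in the 3 control libraries and 128 to 168 in the 3 Rnf40ΔSC libraries, and the ranges overlapped. Its log2 fold change was 0.01, with a 95% confidence interval from -0.25 to 0.28. The ratio of Sbf1 to Sbf2 counts was 0.263 ± 0.0307 in control and 0.323 ± 0.0558 in Rnf40ΔSC libraries (SD, n = 3 each), and the ranges overlapped. A two-sided exact permutation test gave p = 0.3 (also 0.3 after adjustment over the 2 ratios tested), where 3 against 3 libraries cannot give less than 0.1.

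Fig4, the phosphatase that acts with the kinase Pikfyve and the scaffold Vac14 on a doubly phosphorylated lipid of late endosomes, gave no detectable difference. Fig4 (chromosome 10, 40907978 to 41023047, minus strand) had 45.1 ± 1.57 normalized counts in control and 45.2 ± 3.99 in Rnf40ΔSC nerves (SD, n = 3 each). The 95% confidence interval of its log2 fold change ran from -0.41 to 0.41. Pikfyve and Vac14 had log2 fold changes of -0.00 (SE 0.20) and -0.15 (SE 0.16), with adjusted p of 0.996 and 0.503 by edgeR.

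Of the 20 further genes of phosphoinositide turnover, 19 were tested, 1 was lower, 2 were higher and 16 passed in neither direction, with a median log2 fold change of -0.12 against -0.00 over all genes (0 lower and 6 higher with total counts). Mtmr3, another active myotubularin, had a log2 fold change of 0.73 (SE 0.11, adjusted p = 3.56e-06 by edgeR). Mtmr12, an inactive relative, had 0.60 (SE 0.15, adjusted p = 0.00183). Mtmr6 had -0.37 (SE 0.11, adjusted p = 0.0104), which did not pass in DESeq2 (0.0559 without and 0.0558 with the prior), with total counts (0.489) or without Rnf40ΔSC replicate 3 (0.0957), in a range of 0.00732 to 0.489.

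Promoters of 3 of the 4 called members, the higher Mtmr2 and Litaf and the lower Sbf2, are shown so that their start regions can be compared by eye. They are the 250 bases before the start in RefSeq (GRCm38.p6, a later build than the mm9 of the counts), for Mtmr2 the first of its 3 entries. Entries were found for 7 of the 10 members, and the promoter file used here had none for Ndrg1, Gdap1 and Sh3tc2. Mtmr2 lies at chr9:13748929-13749178 on the plus strand, Litaf at chr16:10993122-10993371 on the minus strand and Sbf2 at chr7:110614921-110615170 on the minus strand. Capitals mark the core letters bound by EGR factors.
Mtmr2: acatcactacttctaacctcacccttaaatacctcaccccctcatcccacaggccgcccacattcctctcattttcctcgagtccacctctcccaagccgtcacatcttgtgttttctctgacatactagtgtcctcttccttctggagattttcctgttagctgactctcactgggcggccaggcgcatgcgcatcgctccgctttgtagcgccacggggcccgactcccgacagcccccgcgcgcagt
Litaf: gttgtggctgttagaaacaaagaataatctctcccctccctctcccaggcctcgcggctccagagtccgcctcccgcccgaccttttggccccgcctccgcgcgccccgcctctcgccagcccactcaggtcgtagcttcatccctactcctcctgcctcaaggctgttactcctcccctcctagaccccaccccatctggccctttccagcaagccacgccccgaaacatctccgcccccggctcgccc
Sbf2: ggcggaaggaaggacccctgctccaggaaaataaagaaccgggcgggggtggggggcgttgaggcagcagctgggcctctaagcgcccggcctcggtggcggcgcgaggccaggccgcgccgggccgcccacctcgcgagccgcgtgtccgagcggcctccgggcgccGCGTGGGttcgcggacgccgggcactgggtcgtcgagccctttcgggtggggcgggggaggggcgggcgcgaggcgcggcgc

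In all, 4 motifs were searched on both strands: GCGTGGG (EGR core), ACGTG (hypoxia core), CACGTG (E-box, which contains ACGTG) and TGACGTCA (CRE). Of 32851 mouse promoters of this length, 4.3%, 16.6%, 6.02% and 1.55% held them, in that order. Over the 13 entries of the 7 members, GCGTGGG occurred in Sbf2 alone, 82 bases before the start, and ACGTG in 1 of the 3 entries of Mfn2, 39 bases before the start. CACGTG and TGACGTCA occurred in 0 entries. A match describes letters and no binding was measured here.

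The endosomal adaptors Litaf, Sh3tc2 and Ndrg1 gave the largest rise and the largest fall among the members tested. Litaf is a small membrane protein of late endosomes that binds ubiquitin ligases of the NEDD4 type and the ESCRT machinery. Litaf (chromosome 16, 10959368 to 11066250, minus strand) had 156, 179 and 154 normalized counts in control replicates 1, 2 and 3 and 225, 246 and 222 in Rnf40ΔSC replicates 1, 2 and 3. All Rnf40ΔSC libraries lay above all control libraries. The log2 fold change was 0.50 (SE 0.11, adjusted p = 0.000656 by edgeR), a fold of 1.41.

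Ndrg1 is a cytoplasmic protein of Schwann cells with a role in endosomal recycling. Ndrg1 (chromosome 15, 66760883 to 66801202, minus strand) had 4722, 5101 and 5087 normalized counts in control replicates 1, 2 and 3 and 3538, 3290 and 3459 in Rnf40ΔSC replicates 1, 2 and 3. The genotypes did not overlap, and the highest Rnf40ΔSC library was below the lowest control library. The log2 fold change was -0.54 (SE 0.07, adjusted p = 4.32e-07 by edgeR), a fold of 0.690. With total counts it was -0.27 (adjusted p = 0.00269, in a range of 1.19e-11 to 0.00269 over all alternatives). The annotation places 2 genes on the opposite strand over exons of Ndrg1, and since the strand setting of the counting is not given in the sources used here, their reads cannot be told apart from those of Ndrg1.

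Sh3tc2 binds the recycling GTPase Rab11. Sh3tc2 (chromosome 18, 62112729 to 62184019, plus strand) had 198, 211 and 210 normalized counts in control replicates 1, 2 and 3 and 180, 143 and 187 in Rnf40ΔSC replicates 1, 2 and 3. The libraries did not overlap, but the adjusted p was 0.0693 by edgeR (log2 fold change -0.27, SE 0.12). It was 0.0326 without Rnf40ΔSC replicate 3 and 0.981 with total counts, the lowest and the highest over all alternatives. Rab11a and Rab11b had log2 fold changes of -0.21 (SE 0.11) and -0.31 (SE 0.13), with adjusted p of 0.156 and 0.0709. Without control replicate 1 that of Rab11b was 0.0373 (highest 0.836 over all alternatives).

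The paralogs of these adaptors did not pass the test. Ndrg2, Ndrg3, Ndrg4 and Sh3tc1 had log2 fold changes of -0.25, 0.27, -0.57 and -0.88, with adjusted p between 0.0622 and 0.384 by edgeR. Of the 5 paralogs listed, 0 were lower and 0 higher by edgeR and by DESeq2, 2 were lower and 1 higher at an unadjusted p under 0.05, and the median was -0.25 (0 lower and 2 higher with total counts). Over all 11371 genes tested, 41% had an unadjusted p under 0.05 in edgeR, and DESeq2 without its prior called 1287 lower and 1172 higher. Without Rnf40ΔSC replicate 3 the adjusted p of Ndrg2 was 0.000466 (highest 0.956 over all alternatives) and that of Ndrg3 0.0348 (highest 0.279). With total counts Ndrg3 was at 0.54 with an adjusted p of 0.000515. Without Rnf40ΔSC replicate 1 that of Sh3tc1 was 0.0442 (highest 0.335).

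Of 24 genes of endosomal sorting, all tested, 4 were lower and 3 higher, with a median log2 fold change of 0.01 (1 lower and 9 higher with total counts). The ubiquitin ligase Wwp1 was lowest, at -1.41 (SE 0.13, adjusted p = 3.19e-09 by edgeR). Nedd4, which Litaf binds, was at -0.31 (SE 0.08, adjusted p = 0.00205) but at -0.04 with total counts (adjusted p = 0.69, range 0.000847 to 0.69), and Itch was at 0.08 (SE 0.11, adjusted p = 0.627, and 0.0108 with total counts). The ESCRT subunits Snf8 and Vps25 had 0.75 (SE 0.28, adjusted p = 0.0412) and 0.38 (SE 0.11, adjusted p = 0.00755). Vps37c had -0.57 (SE 0.20, adjusted p = 0.0236). Snf8 lost its call in DESeq2 and without control replicate 2 or 3 or Rnf40ΔSC replicate 1 or 2, with an adjusted p up to 0.255. Vps37c lost it in DESeq2, with total counts and without control replicate 1 or 3 or Rnf40ΔSC replicate 2, up to 0.252. Vps25 lost it without control replicate 2 (0.0793, the highest over all alternatives).

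Of 27 genes of endosomal Rab proteins and recycling, 25 were tested, 7 were lower and 1 was higher, with a median log2 fold change of -0.21. Ehd1 and Ehd4, ATPases that shape recycling tubules, had -0.87 (SE 0.11, adjusted p = 4.19e-08 by edgeR) and -0.74 (SE 0.10, adjusted p = 3.67e-07). Rab10 was the higher gene, at 0.33 (SE 0.09, adjusted p = 0.00652, and 0.0573 without control replicate 3, the highest over all alternatives). With total counts the list held 3 lower and 9 higher genes.

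Fgd4, an exchange factor that activates the GTPase Cdc42, was counted with few reads. Fgd4 (chromosome 16, 16417010 to 16600642, minus strand) had between 12 and 28 counts per library, or 21.0 ± 3.50 normalized counts in control and 23.3 ± 6.42 in Rnf40ΔSC nerves (SD, n = 3 each). The 95% confidence interval of its log2 fold change, from -0.50 to 0.72, leaves changes of that size not detectable at this depth. Cdc42 itself had 0.28 (SE 0.09, adjusted p = 0.0117 by edgeR). Its adjusted p was 0.0545 without control replicate 1, 0.0907 without control replicate 3 and 0.0959 without Rnf40ΔSC replicate 2, in a range from 3.4e-06 to 0.0959.

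The mitochondrial members gave no call. Gdap1, a protein of the outer mitochondrial membrane, had counts of 0, 1 and 0 in control and of 0, 2 and 3 in Rnf40ΔSC libraries. At 3 counts or fewer in every library, Gdap1 (chromosome 1, 17135443 to 17154352, plus strand) was treated as undetected and was not tested. Its paralog Gdap1l1 was not tested either.

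Mfn2 fuses outer mitochondrial membranes together with its paralog Mfn1. Mfn2 (chromosome 4, 147247708 to 147278813, minus strand) had 149, 150 and 165 normalized counts in control replicates 1, 2 and 3 and 117, 123 and 189 in Rnf40ΔSC replicates 1, 2 and 3. Rnf40ΔSC replicate 3 was the highest of all libraries and the other two Rnf40ΔSC libraries were the lowest. The log2 fold change was -0.11 (SE 0.15, adjusted p = 0.622 by edgeR). Without Rnf40ΔSC replicate 3 it was -0.37 with an adjusted p of 0.0313, in a range of 0.0313 to 0.945 over all alternatives, and without Rnf40ΔSC replicate 1 it was 0.04.

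Skeletal muscle markers also differed between Rnf40ΔSC replicate 3 and the other two Rnf40ΔSC libraries. The 12 markers, led by Myh4 and none at 0 in all libraries, had summed levels of 4748, 3547 and 2656 CPM (counts scaled by library size, after TMM) in the control libraries. Their sums were 94.0, 233 and 3215 CPM in Rnf40ΔSC replicates 1, 2 and 3, so that replicate 3 lay among the controls. Between genotypes, 0 of the 12 passed in edgeR or in DESeq2, and 0 had an unadjusted p under 0.05 in edgeR. Their part in the values of Mfn2, Sh3tc2 and Ndrg2 was not tested.

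Mfn1 had a log2 fold change of 0.23 (SE 0.17, adjusted p = 0.315 by edgeR) and the inner membrane fusion protein Opa1 0.18 (SE 0.12, adjusted p = 0.239). The adjusted p of Mfn1 was 0.0478 without Rnf40ΔSC replicate 2 and 0.0164 with total counts, and that of Opa1 was 0.00234 with total counts, with highest values of 0.629 and 0.654 over all alternatives. The ratio of Mfn1 to Mfn2 counts was 0.553, 0.580 and 0.526 in control and 0.965, 0.559 and 0.608 in Rnf40ΔSC replicates 1, 2 and 3. Rnf40ΔSC replicate 1 was far above the rest, and the ranges overlapped. A two-sided exact permutation test gave p = 0.2 (0.3 after adjustment over the 2 ratios).

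Of 25 genes of mitochondrial fusion, fission, shape and transport, 23 were tested, 3 were lower and 3 higher, with a median log2 fold change of 0.18. The kinase Pink1, which marks damaged mitochondria, had -0.92 (SE 0.11, adjusted p = 2.86e-08 by edgeR), and the transport GTPase Rhot1 had -0.69 (SE 0.13, adjusted p = 0.000221). Park2, the ubiquitin ligase that acts with Pink1, had 1.31 (SE 0.38, adjusted p = 0.00684) at a base mean of 18.1. Its adjusted p was 0.119 without control replicate 3 and 0.0530 without Rnf40ΔSC replicate 3, in a range of 0.00103 to 0.119. The protease Yme1l1 had 0.41 (SE 0.10, adjusted p = 0.00179). With total counts this list held 2 lower and 12 higher genes.

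**Figure D2:**
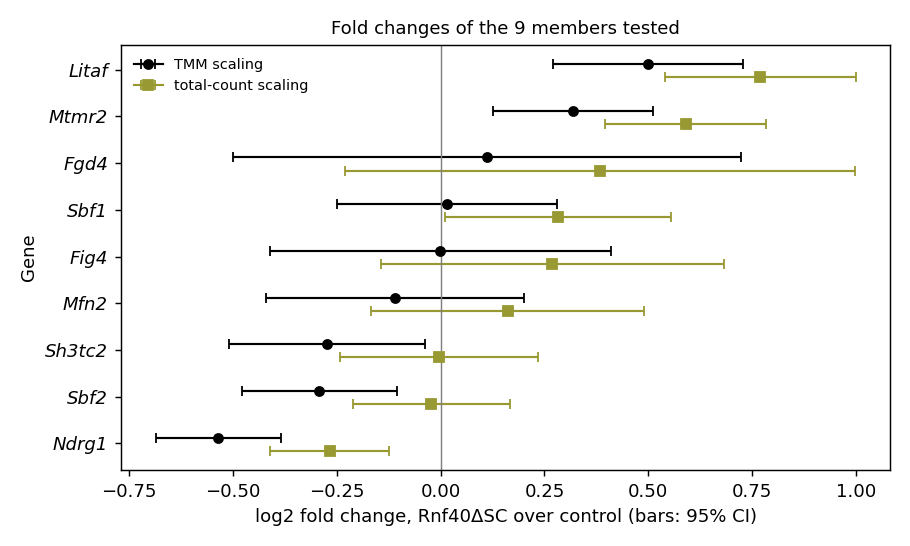
log2 fold change (horizontal axis, Rnf40ΔSC over control) of the 9 members tested, with 95% confidence intervals, after TMM scaling (black circles) and total-count scaling (olive squares). Ndrg1 lay below 0 and Litaf and Mtmr2 above 0 under both scalings, while Sbf2 went from -0.29 to -0.02.

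Levels between genes were compared as counts per kilobase of exon after TMM, scaled to CPM. In control nerves Ndrg1 led at 391 ± 16.9, followed by Mtmr2 at 43.2 ± 2.91, Litaf at 32.0 ± 2.71, Sbf2 at 23.7 ± 0.737 and Sh3tc2 at 18.6 ± 0.639 (SD, n = 3 each). Mfn2 at 15.5 ± 0.892, Sbf1 at 11.3 ± 1.23, Fig4 at 7.16 ± 0.249 and Fgd4 at 0.622 ± 0.104 came after them (SD, n = 3 each). Neighbours in this order did not overlap in control libraries. In Rnf40ΔSC libraries the order of means was the same, but Sh3tc2 overlapped with Mfn2 and Mfn2 with Sbf1. Exonic length is the union over all annotated transcripts, 17511 bases for Fgd4, so a gene with unused exons is understated.

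**Figure D3:**
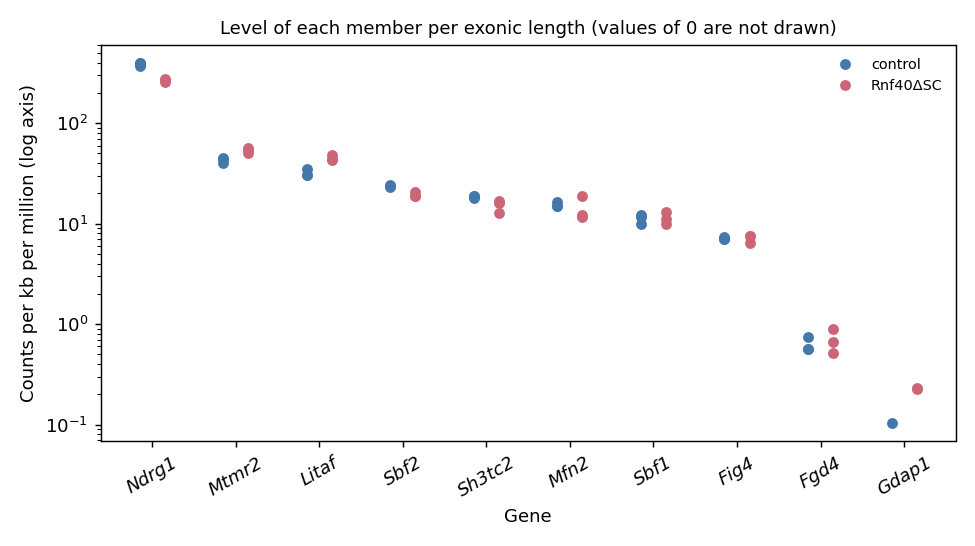
Level of each member as CPM per kilobase (vertical log axis) in control (blue) and Rnf40ΔSC (red) libraries, genes ordered by the control mean and libraries at 0 not drawn. Ndrg1 lies highest, at 391 in control on average, and Fgd4 and Gdap1 lie below 1.

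The genes most like the 2 extremes were found by the distance between mean-centred log2 CPM profiles over the 6 libraries. Sparc, Kctd10 and Ankrd40 were nearest to Ndrg1, at distances of 0.0944, 0.106 and 0.115. Ist1, Adnp and Cct7 were nearest to Litaf, at 0.0590, 0.0760 and 0.0933.

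Proteins of the myelin sheath are given beside the members. All 8 sheath genes compared were lower, from -2.13 for Pmp22 to -0.52 for Pllp on the log2 scale, with a median of -1.75, and the members ran from -0.54 to 0.50 with a median of -0.00. The difference between the lists was not tested. Among 7 regulators, 3 were lower and 3 higher (1 and 4 with total counts). Rnf20, the partner of Rnf40, was at 0.44 (SE 0.13, adjusted p = 0.00998 by edgeR) and the myelin regulator Egr2 at 0.36 (SE 0.10, adjusted p = 0.00579). Both lost the call without control replicate 3 (0.0870 and 0.0873, the highest over all alternatives), and Rnf20 also without Rnf40ΔSC replicate 1 (0.0570).

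**Figure D4:**
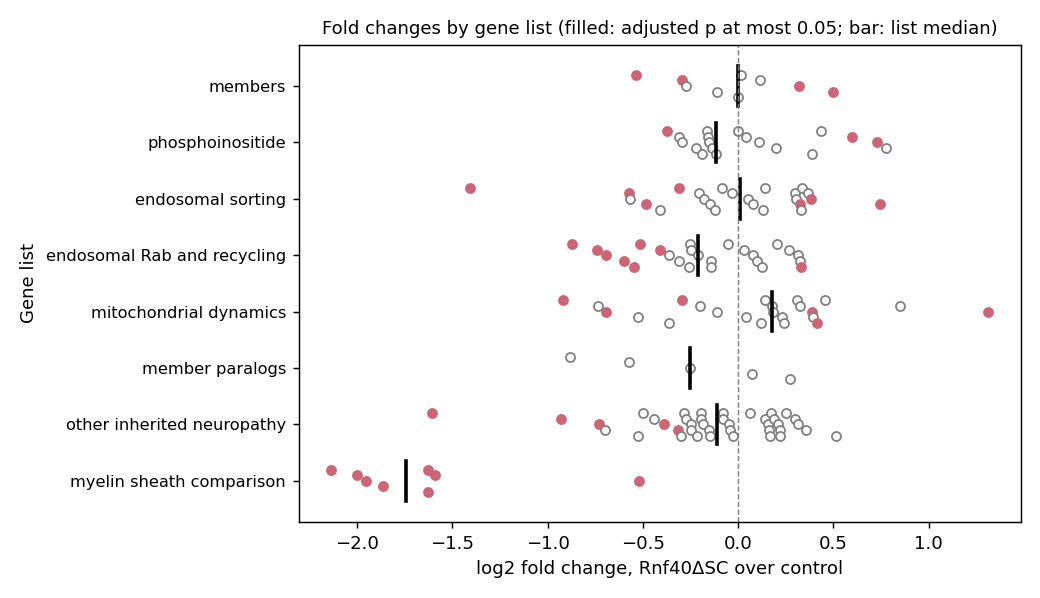
log2 fold change (horizontal axis, Rnf40ΔSC over control) of each gene tested, by gene list, filled where the adjusted p was at most 0.05, with list medians as bars and the median of all genes dashed. The 8 genes of the myelin sheath lie to the left with a median of -1.75, and the members lie between -0.54 and 0.50.

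Markers of the nerve's cell types moved between the genotypes as well. Of 4 Schwann cell markers 4 were lower, summing to 1158, 1317 and 1282 CPM in control and 739, 693 and 686 in Rnf40ΔSC replicates 1, 2 and 3. Of 4 markers of myelinating cells 3 were lower and 1 was higher, with sums of 31311, 34584 and 33406 in control and 11558, 10407 and 10951 in Rnf40ΔSC replicates 1, 2 and 3, led by Mbp. Of 6 markers of immature, promyelinating or non-myelinating Schwann cells 4 were higher and 2 lower, with sums of 623, 647 and 616 against 1245, 1582 and 1267. The 2 lower markers were Ngfr at a log2 fold change of -0.90 and L1cam at -1.87. Pou3f1 (Oct6), which the paper uses as a marker of the promyelinating stage, led the sums, at 215, 204 and 171 CPM against 722, 985 and 723. The list of myelinating cells shares genes with the sheath list, and the other 2 do not.

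Several markers of other cell types were lower too, relative to the median gene. The median log2 fold change of all genes was 0.27 with total counts, and counts of called markers with total counts are not given here. Of 5 fibroblast markers 4 were lower, with sums of 39736, 38914 and 42103 CPM in control and 30899, 29784 and 29250 in Rnf40ΔSC replicates 1, 2 and 3, led by Col3a1. Log2 fold changes were -0.49 for Col3a1, -0.37 for Col1a1, -0.27 for Pdgfra, -0.26 for Dcn and 0.12 for Lum. Lum was not called (adjusted p = 0.315 by edgeR), and the falls of Pdgfra and Dcn were close in size to the shift by total counts. Of 5 endothelial markers 5 were lower, with sums of 634, 563 and 636 against 401, 399 and 477, led by Cdh5. Of 5 macrophage markers 4 were lower, with sums of 275, 244 and 278 against 177, 169 and 186, led by Csf1r. Among 4 perineurial markers 3 were lower, with sums of 843, 974 and 964 against 540, 448 and 506. Itgb4 led the perineurial markers in control and Cldn1 in Rnf40ΔSC libraries. Itgb4 alone had 422, 480 and 494 CPM in control and 149, 121 and 161 in Rnf40ΔSC replicates 1, 2 and 3. The paper lists Itgb4 among genes with decreased H2Bub1 and lower expression in Rnf40ΔSC nerves. Which cells held its fall was not tested, so the sum is not read as a change of perineurial cells. Log2 fold changes were -1.69 for Itgb4, -0.66 for Slc2a1, -0.28 for Cldn1 and 0.19 for Krt19. Of 6 adipocyte markers 2 were lower, with sums of 1014, 768 and 1313 against 858, 773 and 604, led by Fabp4. Of 5 neuronal markers 1 was tested, Snap25, which was higher, with sums of 8.2, 6.8 and 7.1 against 16.7, 18.1 and 14.5. By DESeq2 the lower markers were 3 of fibroblasts, 4 of endothelial cells, 3 of macrophages, 2 of perineurial cells and 2 of adipocytes. Over all 11371 genes tested, DESeq2 called 1287 lower and 1172 higher without its prior and 1289 and 1180 with it. The shares by edgeR were 16.2% lower and 15.4% higher. No marker in these lists was at 0 in all libraries, the sums are levels of RNA and do not count cells, and the part of these cells in the values of the members was not tested.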

How the data were processed

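The authors aligned reads of 6 libraries to mm9 with TopHat, per the paper's methods, and deposited raw counts of uniquely mapped reads per gene from HTSeq, without normalization. The submitters' processing notes list Bowtie2 2.1.0 and both mm9 and mm10. Gene annotation and strand setting are not given in the sources used here. Groups came from the genotype labels. The test was that of edgeR 4.0.16 in R 4.3.3 (filterByExpr, TMM, robust quasi-likelihood fit on genotype), after the code was tested on simulated data. DESeq2 1.42.0, other scalings and filters, a replicate block and leaving out each library were alternatives. Log2 CPM used a prior count of 2. Exonic lengths and coordinates are from GENCODE vM1. Totals of 1317167 to 2468765 counts leave genes with few reads imprecise, and intervals cover the spread between libraries. Members and lists were chosen with earlier results of these data known. Named genes were the members, chosen paralogs or partners of theirs, Rnf40, Rnf20 and Egr2 among the regulators, and in lists other than the regulators and the sheath up to 2 genes a direction with the largest change among those past an adjusted p of 0.05. Arhgef10, Inf2 and Kif1a joined them later, once their results were known. Of the lists set beforehand, 1 list and 2 genes are not reported here, and counts of other lists and markers leave those genes out.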

Additional observations from a re-analysis of the deposited data

How the results depend on the processing

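Over 44 named genes and 13 alternatives, 493 of 569 values kept their direction and their side of an adjusted p of 0.05, 37 lost and 11 gained the call, and 28 changed sign. Litaf and Ndrg1 kept their calls under all 13 alternatives, Mtmr2 under 12 and Sbf2 under 10. With total counts, 1 member was lower (Ndrg1), and 880 genes were lower and 3766 higher. Leaving out 1 library at a time gave 1 to 4 lower members, with 1 without control replicate 3 or Rnf40ΔSC replicate 1 and 4 without Rnf40ΔSC replicate 3 (Mfn2 and Sh3tc2 in addition), and 1 to 2 higher members, with 1 without control replicate 1. Over all genes tested, 1439 of 11615 were lower without control replicate 3 and 1482 of 11539 without Rnf40ΔSC replicate 1. Without Rnf40ΔSC replicate 3, 1992 of 11499 genes were lower. Higher genes without control replicate 1 were 1498 of 11706. The cause of these moves was not tested.

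Some values changed sign, none of them called. The log2 fold change of Fig4, -0.00053 after TMM, was 0.0050 with RLE scaling, 0.27 with total counts, 0.0057 and 0.0052 with DESeq2 without and with the prior, 0.0072 without a filter, 0.013 with at least 10 counts in every library and 0.0098 with the replicate block, and ran from -0.046 to 0.087 with 1 library left out. That of Pikfyve, -0.0020 after TMM, was 0.0039, 0.27, 0.029, 0.026, 0.0049, 0.0041 and 0.060 in the same order, and -0.21 to 0.16 with 1 library left out. With total counts Mfn2 was at 0.16, Vac14 at 0.12, Rab11a at 0.060 and Ndrg2 at 0.018. With 1 library left out, Fgd4 ran from -0.077 to 0.30, Sbf1 from -0.084 to 0.098 and Mfn2 from -0.37 to 0.041.

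Counts within the gene lists moved by over 1.5 times as follows, and the cause was not tested. Over all genes tested, calls were 1287 lower and 1172 higher with DESeq2 without the prior and 1289 and 1180 with it. With 1 library left out in turn, calls over all genes ran from 1439 to 1992 lower and from 1293 to 1915 higher. With total counts, the count was 0 lower in the phosphoinositide list, 6 higher in the phosphoinositide list, 1 lower in the endosomal sorting list, 9 higher in the endosomal sorting list, 3 lower in the endosomal Rab and recycling list, 9 higher in the endosomal Rab and recycling list, 12 higher in the mitochondrial dynamics list, 2 higher in the member paralogs list, 3 lower in the other inherited neuropathy list, 12 higher in the other inherited neuropathy list and 1 lower in the regulators list. With DESeq2 without the prior, the count was 0 lower in the phosphoinositide list, 2 lower in the endosomal sorting list, 1 higher in the endosomal sorting list and 4 lower in the endosomal Rab and recycling list. With DESeq2 and its prior, the count was 0 lower in the phosphoinositide list, 2 lower in the endosomal sorting list, 1 higher in the endosomal sorting list and 4 lower in the endosomal Rab and recycling list. With at least 10 counts in every library, the count was 5 higher in the endosomal sorting list and 4 higher in the other inherited neuropathy list. With RLE scaling, the count was 1 higher in the other inherited neuropathy list. Without a filter on low counts, the count was 1 higher in the other inherited neuropathy list. With the replicate block, the count was 2 higher in the other inherited neuropathy list. With 1 library left out in turn, counts ran from 0 to 1 lower in the phosphoinositide list, 2 to 4 higher in the phosphoinositide list, 0 to 5 higher in the endosomal sorting list, 4 to 6 lower in the endosomal Rab and recycling list, 2 to 5 higher in the mitochondrial dynamics list, 0 to 1 lower in the member paralogs list, 0 to 1 higher in the member paralogs list, 0 to 3 higher in the other inherited neuropathy list and from 1 to 3 higher in the regulators list.

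The replicate numbers gave no sign of a pairing. Libraries with the same number had correlations of -0.095, -0.015 and -0.062 between their deviations from the group means, and those with unlike numbers from -0.031 to 0.104. With 3 libraries a group, this cannot exclude a pairing. The replicate block gave 1837 lower and 1727 higher genes, and it changed no call of a member. At these totals Fgd4 and Gdap1 allow no firm statement, and 3 libraries a group leave small changes undetected. Pools of nerves average over mice, and counting without a known strand leaves Ndrg1 uncertain.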

Other observations

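Of 44 other genes of inherited neuropathy outside the members and the sheath, 40 were tested. By edgeR and by DESeq2 alike, 5 were lower and 0 were higher. Over all genes tested in edgeR, 16.2% were lower and 15.4% higher. DESeq2 without its prior called 1287 of 11371 genes lower and 1172 higher. At an unadjusted p under 0.05 in edgeR, 10 of the list were lower and 4 higher, against 41% of all genes in either direction. The median log2 fold change of the list was -0.11. With total counts 3 were lower and 12 higher, and with at least 10 counts in every library 4 of 39 were lower and 4 higher. Rab7 of this list also stands in the list of endosomal Rab proteins. The small heat shock protein Hspb8 had the lowest value, at -1.61 (SE 0.29, adjusted p = 3.9e-05 by edgeR) and a base mean of 29.4. The peptidase Mme, whose loss causes a late-onset axonal neuropathy, had -0.93 (SE 0.09, adjusted p = 7.69e-11). Both kept an adjusted p of at most 0.05 under every alternative that gave them a value. Hspb8 was lowest in Rnf40ΔSC replicates 1 and 2, at 14.9 and 6.03 normalized counts, against 20.7 in replicate 3 and 38.7 to 53.4 in control. Replicates 1 and 2 also had the lowest sums of skeletal muscle markers, and the part of muscle in the value of Hspb8 was not tested. Arhgef10, Inf2 and Kif1a, named after their values were seen, had -0.73 (SE 0.10), -0.39 (SE 0.10) and -0.32 (SE 0.09), with adjusted p of 1.57e-07, 0.00415 and 0.00526. Arhgef10 kept the call under all 13 alternatives (highest 0.000183). Inf2 lost it with total counts (0.380) and without control replicate 3 (0.0574), and Kif1a with total counts (0.711), without control replicate 2 (0.0518) and without Rnf40ΔSC replicate 1 (0.0933).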
